A study of Homo sapiens with 21 samples.

Results

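The genes described here encode receptors of the epidermal growth factor (EGF) receptor family, the ligands that bind EGFR, and 1 intracellular inhibitor of the receptors. They were chosen by symbol, matched to the gene identifiers of the 4 tables of RNA-seq values, and not by how they were expressed: the 3 receptors EGFR, ERBB2 and ERBB3, the 6 ligands AREG, EREG, HBEGF, TGFA, BTC and EPGN, and the inhibitor ERRFI1, that is 10 genes of the 20970 with a row in at least 1 table. The study examined METTL4, an adenine methyltransferase, in human cancer cell lines under low oxygen, and 21 RNA-seq libraries were analysed. FADU, a head and neck cancer line, and BFTC909, an upper tract urothelial cancer line, were each given a scrambled siRNA (Scr-si) and kept at 18% O2 (normoxia) or 1% O2 (hypoxia) for 18 h, or were given METTL4 siRNA (METTL4-si) and kept at 1% O2 for 18 h, with 2 libraries per group. FADU cells kept at 18% O2 were control cells, cells overexpressing METTL4 (METTL4-OE) or cells overexpressing the long non-coding RNA RP11-390F4.3 (RP11-390F4.3-OE), again with 2 libraries per group. The remaining 3 libraries were of FADU cells at 1% O2: 1 of CRISPR control cells and 1 from each of 2 clones in which the DPPW motif of METTL4, its catalytic site, had been mutated by prime editing, so that each clone is a single library.

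Receptors of this family are single-pass membrane tyrosine kinases that pair with each other once a ligand is bound, and they signal through the RAS-ERK and PI3K-AKT routes. The ligands are made as membrane-anchored precursors, are cut free by ADAM metalloproteases and act on the cell that makes them or on its neighbours. ERBB2 has no known ligand of its own, ERBB3 has little kinase activity and binds neuregulins, and ERRFI1 (MIG6) binds the active kinase domain and blocks it. In squamous epithelium EGFR and its ligands drive keratinocyte growth, and EGFR is often abundant in carcinomas that arise there.

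In the hg19 assembly EGFR lies on chr7:55086710-55279321 (plus strand), ERBB2 on chr17:37844167-37886679 (plus strand), ERBB3 on chr12:56470583-56497289 (plus strand) and ERRFI1 on chr1:8064464-8086369 (minus strand). HBEGF lies on chr5:139712428-139726188 (minus strand) and TGFA on chr2:70674416-70781325 (minus strand). The 4 other ligand genes sit together on chromosome 4 within 546 kb, in the order EPGN (chr4:75174187-75182506), EREG (chr4:75230862-75254466), AREG (chr4:75310853-75320722) and BTC (chr4:75669969-75719733), with the first 3 on the plus strand and BTC on the minus strand. A near-identical copy of AREG, AREGB, is annotated in that assembly between AREG and BTC (chr4:75480629-75490486), so reads of AREG could have been split between both or dropped, and AREG values are uncertain for this reason. Several other members overlap annotated genes: EGFR and ERRFI1 overlap genes on the opposite strand, ERBB2 overlaps PGAP3 and MIEN1 on the opposite strand and MIR4728 on its own, and ERBB3 and TGFA overlap non-coding genes on their own strand. The library kit marked strand, but whether the counting used it is not given in the sources used here.

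The 250 bases upstream of the RefSeq start were read for the 9 members with an entry in the RefSeq promoter table (GRCh38.p14), ERBB3 having none there. They were searched on both strands for the core of the hypoxia response element (ACGTG or GCGTG), the AP-1 site TGANTCA and the cyclic AMP response element TGACGTCA, and on the gene's own strand for TATAAA. The sequences of the 3 chromosome 4 ligands measured here are shown because EREG and BTC fell together in FADU hypoxia and AREG was lower there too, and those of HBEGF and EGFR because HBEGF fell with them while EGFR rose. Capitals mark the matches, and all sequences are written 5′ to 3′ on the gene's strand.
EREG, GRCh38.p14 chr4:74364895-74365144, plus strand: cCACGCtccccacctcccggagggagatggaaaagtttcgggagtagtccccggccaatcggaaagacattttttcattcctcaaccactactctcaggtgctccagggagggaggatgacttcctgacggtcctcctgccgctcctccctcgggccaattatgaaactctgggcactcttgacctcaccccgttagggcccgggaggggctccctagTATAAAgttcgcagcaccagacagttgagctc
AREG, GRCh38.p14 chr4:74444886-74445135, plus strand: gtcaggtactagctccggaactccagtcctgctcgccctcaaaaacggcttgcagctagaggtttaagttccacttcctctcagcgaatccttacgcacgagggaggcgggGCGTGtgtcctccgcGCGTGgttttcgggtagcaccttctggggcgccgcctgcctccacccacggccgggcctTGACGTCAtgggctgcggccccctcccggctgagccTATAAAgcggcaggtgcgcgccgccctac
BTC, GRCh38.p14 chr4:74794524-74794773, minus strand: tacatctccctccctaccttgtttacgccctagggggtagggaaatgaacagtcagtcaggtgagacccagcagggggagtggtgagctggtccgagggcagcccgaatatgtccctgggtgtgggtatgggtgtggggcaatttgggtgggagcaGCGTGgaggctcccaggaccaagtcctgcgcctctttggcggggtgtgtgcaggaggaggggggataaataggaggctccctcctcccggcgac
HBEGF, GRCh38.p14 chr5:140346604-140346853, minus strand: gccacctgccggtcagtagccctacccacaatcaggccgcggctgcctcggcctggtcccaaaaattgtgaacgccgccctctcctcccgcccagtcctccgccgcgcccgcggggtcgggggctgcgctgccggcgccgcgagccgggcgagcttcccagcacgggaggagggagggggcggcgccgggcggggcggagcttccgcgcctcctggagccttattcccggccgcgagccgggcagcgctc
EGFR, GRCh38.p14 chr7:55018767-55019016, plus strand: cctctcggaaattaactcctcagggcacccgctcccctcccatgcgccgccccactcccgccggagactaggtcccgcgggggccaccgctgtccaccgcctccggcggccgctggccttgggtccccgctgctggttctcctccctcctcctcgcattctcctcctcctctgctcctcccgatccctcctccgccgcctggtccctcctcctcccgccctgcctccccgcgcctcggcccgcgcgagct
AREG had TATAAA beginning 29 bases before its start, TGACGTCA at 65 bases and GCGTG at 124 and 139 bases. EREG had TATAAA at 32 bases and GCGTG, read on the other strand as CACGC, at 249 bases, and BTC had GCGTG at 94 bases. EPGN, which is not shown, had TATAAA at 29 bases and GCGTG at 114 bases, so that all 4 chromosome 4 ligand genes held GCGTG and 3 of them TATAAA. HBEGF, EGFR, TGFA and ERRFI1 held no searched motif in this window, and ERBB2 held 1 AP-1 site, TGATTCA, at 222 bases. Among 35116 promoters of the same length, 32.2% held GCGTG, 18.5% ACGTG, 6.6% TGANTCA, 1.6% TGACGTCA and 6.8% TATAAA. The GC content of the EGFR and HBEGF windows was 73.6% and 76.4%, against a mean of 57.2% over all promoters. A match of letters is a description of the sequence and does not show that a factor binds there.

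Between 17.8 and 25.4 M reads lay on genes per library, and nothing in the labels says that libraries of 1 group came from separate cultures, so p-values measure the spread between these samples, which may be technical. CA9, a hypoxia marker, was at 2.33 and 2.55 in FADU normoxia and 31.0 and 37.8 in hypoxia, and at 0.358 and 1.17 against 54.0 and 56.2 in BFTC909. In the libraries labelled METTL4-si, also kept at 1% O2, mean CA9 was 2.05 in FADU, near its normoxic values, and 5.69 in BFTC909. Against hypoxic Scr-si its log2 fold change was -3.53 in FADU and -3.07 in BFTC909, and the cause was not tested. METTL4 rose in METTL4-OE cells, from 35.4 and 32.7 to 158 and 139. In FADU, however, METTL4 was at 26.6 and 25.3 in the hypoxic Scr-si libraries and at 24.2 and 27.1 in those with the METTL4-si label (log2 fold change -0.02 ± 0.09, SE), so the FADU siRNA groups are named below by their labels. In BFTC909 it was 19.0 and 15.6 against 14.4 and 12.2 (-0.36 ± 0.13, adjusted p = 0.0717 by limma). The name RP11-390F4.3 was not matched to an identifier here, and no value is given for it. All 7 squamous epithelial markers had a row in the FADU tables, KRT5 reaching 1340 to 2819 in the knockdown libraries. BFTC909 had a row for 2 of 7 urothelial and 2 of 7 squamous markers, with none of the 4 uroplakin genes, and for 5 of 7 fibroblast markers, so its values are described under the name of the line. In 3 knockdown libraries markers of other cells stood apart from the other library of the group. The summed value of luminal breast markers (3 of 9 with a row: ESR1, PGR and TFF1) was 46.0 and 3.08 in the FADU normoxia libraries 1 and 2, 224 and 2.76 in those labelled METTL4-si, and 7.46 and 7.02 in hypoxia, and BFTC909 METTL4-si library 2 had KRT8 at 715 against 5.02 and GATA3 at 128 against 0.84. TFF1 was at 0 in the other FADU knockdown libraries, and KRT8, KRT18 and EPCAM are markers of simple epithelium. The part of these markers in the results was not tested, and values without the 3 libraries are given beside the results they move. Leaving out these or any other library of a pair leaves a single library in its group. Counts of genes called in such fits are given without the share of all genes, and are not read as results about the genes counted. In bulk RNA, fewer cells of a type and less RNA per cell cannot be told apart.

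All values are the deposited TMM-normalized CPM, a count scaled to a common library size. A gene was counted as having risen or fallen where limma on log2(value + 1) gave a change of at least 1.3-fold and a Benjamini-Hochberg adjusted p under 0.05 over all tested genes of the comparison. Where groups are said to lie apart or not to overlap, this only describes the values of their libraries. How many of all genes did so was not counted, and with so few libraries many genes may. EPGN, a low-affinity EGFR ligand, had no row in any table. The other 9 members had a row in each FADU table, and 6 had one in the BFTC909 table, where ERBB3, AREG, TGFA and EPGN had none. Rows of these tables had at least 9 or 10 reads in their second-highest library, and those for the mutant clones had at least 10 in every library. Whether a gene without a row was below that depth or missing for another reason is not known, and its change could not be examined. All 9 and all 6 members with a row passed the filter on low values, a value of 1 in 2 libraries, and BTC in BFTC909 did so only through its METTL4-si libraries.

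Levels of different genes were compared as values per kb of annotated exon. EGFR was the highest member in each of the 11 groups. In FADU normoxia EGFR stood at 74.1 ± 1.9 per kb (SD, n = 2), followed by the ligand EREG at 35.4 ± 0.66 and by TGFA at 12.3 ± 0.75, ERBB2 at 11.0 ± 0.53 and ERRFI1 at 10.3 ± 0.14. HBEGF at 6.06 ± 0.64, ERBB3 at 5.04 ± 0.35, AREG at 3.32 ± 0.27 and BTC at 2.08 ± 0.38 were lower, and no 2 neighbours in this order overlapped between libraries. The order depends on the length used, however. ERBB2 has 10.32 kb of annotated exon and 4557 bases in its canonical transcript, against 4.92 kb and 4117 bases for TGFA. By canonical length ERBB2 would stand above TGFA here, and ERBB3 above HBEGF. Under hypoxia EREG moved from the second place to the fifth, at 8.75 ± 0.19 per kb, below ERRFI1 at 16.5 ± 0.84, TGFA at 10.3 ± 0.30 and ERBB2 at 9.52 ± 0.37, and BTC was the lowest at 0.887 ± 0.015. In the METTL4-si-labelled libraries EREG was second again, at 33.0 ± 7.4 per kb. There TGFA overlapped ERBB2, ERBB3 overlapped HBEGF, HBEGF overlapped AREG, and AREG overlapped BTC, the lowest. In BFTC909 normoxia EGFR stood at 23.8 ± 0.25 per kb, and the ligand that came next was HBEGF at 5.73 ± 0.068, with EREG at 0.249 ± 0.042 and BTC at 0.0817 ± 0.0037. The tables of both lines were scaled separately, so these levels are set side by side without a test.

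The hypoxia comparison asks how 18 h at low oxygen changed the family. In FADU cells EGFR rose and 3 of its ligands fell. EGFR, the receptor of all the ligands listed, was at 1159 and 1202 in normoxia and at 1963 and 2020 in hypoxia. Both hypoxic libraries were above both normoxic ones, a 1.69-fold rise (log2 fold change 0.75 ± 0.12, adjusted p = 0.00715). ERBB2, the preferred partner of the other receptors, had 118 and 110 in normoxia and 95.5 and 101 in hypoxia. ERBB3, the neuregulin receptor, had 62.0 and 56.1 against 49.2 and 51.1. Neither gene passed the test, with log2 fold changes of -0.21 ± 0.07 (adjusted p = 0.0722) and -0.23 ± 0.17 (adjusted p = 0.374).

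Among the ligands EREG (epiregulin), which binds EGFR and ERBB4, was at 199 and 205 in FADU normoxia and at 49.2 and 50.8 in hypoxia. Its hypoxic values were about the same in both libraries and 3.98-fold below the normoxic ones (log2 fold change -1.99 ± 0.14, adjusted p = 0.000471). HBEGF, a heparin-binding ligand that is also the receptor of diphtheria toxin, was at 16.8 and 19.5 in normoxia and 5.80 and 6.11 in hypoxia. The groups lay apart, with a 2.75-fold fall (-1.46 ± 0.14, adjusted p = 0.00118). BTC (betacellulin), which binds EGFR and ERBB4, had 6.23 and 4.82 against 2.38 and 2.33, a 1.94-fold fall on the log2(value + 1) scale (-0.95 ± 0.15, adjusted p = 0.00608). AREG (amphiregulin), a low-affinity EGFR ligand, had 5.78 and 5.14 in normoxia and 2.16 and 1.92 in hypoxia, which corresponds to 139 and 115 reads against 48 and 42. The test was not passed (-1.09 ± 0.34, adjusted p = 0.0607). The AREG change passed once AREGB was added to it (-1.07, adjusted p = 0.00543). Without the libraries with raised breast markers, which leaves a single normoxic library, the AREG change was -1.02. TGFA, a ligand with high affinity for EGFR alone, had 57.8 and 63.0 in normoxia and 51.7 and 49.6 in hypoxia and did not pass (-0.25 ± 0.11, adjusted p = 0.151).

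ERRFI1, the receptor inhibitor, was at 42.6 and 43.5 in FADU normoxia and at 66.3 and 71.2 in hypoxia. It rose 1.58-fold with no overlap (0.66 ± 0.09, adjusted p = 0.00389). Of the 9 members tested in FADU hypoxia, 2 rose and 3 fell, and of all 16324 genes tested 9.73% rose and 9.65% fell. Without the libraries with raised breast markers, which leaves a single normoxic library, the changes were 0.73 for EGFR, 0.65 for ERRFI1, -2.01 for EREG, -1.56 for HBEGF and -0.80 for BTC. The median log2 fold change was -0.25 over the members and -0.03 over all genes. EGFR fell short of the adjusted p threshold when any 1 of the 4 compared libraries was left out, with log2 fold changes of 0.73 to 0.80 in all fits that left out 1 library (adjusted p = 0.0631 without normoxia library 1, 0.0567 without normoxia 2, 0.0686 without hypoxia 1 and 0.0841 without hypoxia 2). BTC did so without normoxia library 1 (-0.80, adjusted p = 0.0537), hypoxia library 1 (-0.96, adjusted p = 0.0578) or hypoxia library 2 (-0.94, adjusted p = 0.068), and ERRFI1 without hypoxia library 2 (0.61, adjusted p = 0.0588).

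**Figure D1:**
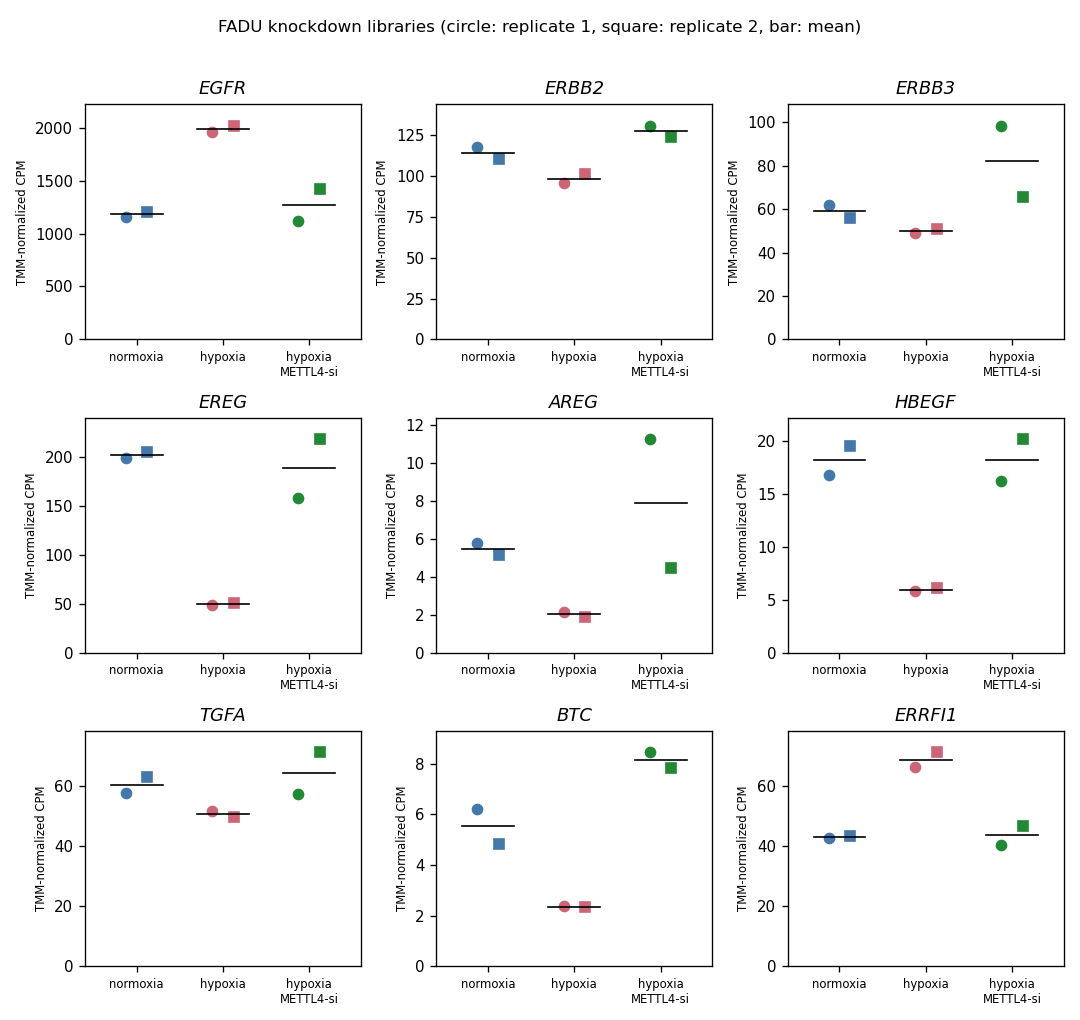
TMM-normalized CPM (linear axes from 0) of each member with a row in the FADU knockdown table, 1 panel per gene, with a circle for replicate 1 and a square for replicate 2 of normoxia, hypoxia and METTL4-si in hypoxia and a line at the group mean. EGFR and ERRFI1 were highest in hypoxia, whereas the mean of every other member was lowest there.

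The siRNA comparison asks whether METTL4 was needed for these levels under hypoxia. It uses the same 2 hypoxic Scr-si libraries as the hypoxia comparison, so the directions of both comparisons are tied and are given here side by side only. In FADU hypoxia EGFR was at 1963 and 2020 with Scr-si and at 1120 and 1423 in the METTL4-si-labelled libraries, in which METTL4 RNA itself was not lower. EGFR fell 1.58-fold (-0.66 ± 0.12, adjusted p = 0.00731), to values on both sides of the normoxic ones. ERBB2 was at 131 and 124 after METTL4-si against 95.5 and 101, and its change of 0.37 ± 0.07 lay just below the fold threshold at 1.29-fold (adjusted p = 0.00852). ERBB3 was at 98.5 and 65.8 against 49.2 and 51.1 and rose (0.67 ± 0.17, adjusted p = 0.0253). The higher ERBB3 value was in library 1, the one with the raised breast markers. Without both marked FADU libraries, which leaves a single METTL4-si library, the ERBB3 change was 0.39. ERBB3 missed the adjusted p threshold in each of the 4 fits that left out 1 Scr-si library, at 0.67 without normoxia library 1 (adjusted p = 0.0521) or 2 (adjusted p = 0.0527), 0.65 without hypoxia library 1 (adjusted p = 0.133) and 0.70 without hypoxia library 2 (adjusted p = 0.116).

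Of the FADU ligands, 4 of 5 were higher in the METTL4-si-labelled libraries by the test. EREG was at 159 and 218 there against 49.2 and 50.8 with Scr-si, a 3.67-fold rise (1.88 ± 0.14, adjusted p = 0.000361). HBEGF was at 16.2 and 20.2 against 5.80 and 6.11 (1.46 ± 0.14, adjusted p = 0.000717). BTC was at 8.45 and 7.83 against 2.38 and 2.33 (1.45 ± 0.15, adjusted p = 0.000906). The EREG and HBEGF values of the METTL4-si-labelled libraries spanned the normoxic level, while both BTC values were above it. AREG was at 11.3 and 4.49 against 2.16 and 1.92 (1.44 ± 0.34, adjusted p = 0.0189), with 283, 101, 48 and 42 reads. The high AREG value was again in the library with raised breast markers. Without both marked libraries, which leaves a single METTL4-si library, the AREG change was 0.86. AREG missed the threshold without hypoxia library 1 (1.49, adjusted p = 0.0934) or 2 (1.38, adjusted p = 0.112), and so did EGFR (-0.68, adjusted p = 0.0626, and -0.64, adjusted p = 0.073). TGFA was at 57.2 and 71.2 against 51.7 and 49.6 and did not pass (0.33 ± 0.11, adjusted p = 0.0613). With a single METTL4-si library in the group, the TGFA change was 0.48 without library 1 and the ERBB2 change was 0.41 without library 2.

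ERRFI1 was at 40.5 and 46.6 in the FADU METTL4-si-labelled libraries and at 66.3 and 71.2 in the hypoxic Scr-si libraries, and fell with no overlap (-0.65 ± 0.09, adjusted p = 0.00259). In total 5 of 9 members rose and 2 fell, against 12.5% and 15.3% of the 16324 genes tested. Their median log2 fold change was 0.67, that of all genes 0.02. Without the marked libraries, which leaves a single METTL4-si library, the changes were 2.11 for EREG, 1.61 for HBEGF, 1.40 for BTC, -0.48 for EGFR and -0.55 for ERRFI1. The summed squamous markers of FADU were at 3724 and 3479 in normoxia, 3253 and 3591 in hypoxia and 2041 and 2240 with METTL4-si, and the simple epithelial ones at 4308 and 3836 in normoxia, 2587 and 2632 in hypoxia and 4128 and 2080 with METTL4-si, and their part was not tested.

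In BFTC909 cells under hypoxia HBEGF and EREG fell as well, ERBB2 rose and ERRFI1 fell. EGFR was at 377 and 383 in normoxia and at 481 and 485 in hypoxia. The change of 0.35 ± 0.09 (adjusted p = 0.0137) was 1.27-fold and below the fold threshold. ERBB2 was at 9.53 and 9.14 in normoxia and at 17.2 and 18.0 in hypoxia. This was a 1.80-fold rise (0.85 ± 0.18, adjusted p = 0.00719), which missed the adjusted p threshold without hypoxia library 2 (0.82, adjusted p = 0.0587). HBEGF, the highest of the member ligands with a row in this line, was at 17.3 and 17.0 in normoxia and 4.63 and 4.54 in hypoxia, a 3.25-fold fall with close replicates (-1.70 ± 0.11, adjusted p = 5.86e-05). EREG was low throughout, at 1.25 and 1.59 in normoxia (28 and 38 reads) and 0.434 and 0.526 in hypoxia (9 and 11 reads). Its fall (-0.71 ± 0.17, adjusted p = 0.012) rested on few reads and missed the threshold without normoxia library 2 (-0.61, adjusted p = 0.0908), hypoxia library 1 (-0.66, adjusted p = 0.0763) or hypoxia library 2 (-0.75, adjusted p = 0.0552). BTC had 5 and 5 reads in normoxia and 11 and 5 in hypoxia, at values of 0.224, 0.21, 0.53 and 0.239, and no difference was detectable at this depth (0.18 ± 0.22, adjusted p = 0.542). ERRFI1 was at 16.7 and 16.6 in normoxia and at 11.7 and 13.4 in hypoxia, a 1.31-fold fall at the edge of the threshold (-0.39 ± 0.11, adjusted p = 0.0246). It missed the call when any 1 of these 4 libraries was left out, with values from -0.30 without hypoxia library 1 (adjusted p = 0.167) to -0.48 without hypoxia library 2 (adjusted p = 0.0538), and -0.38 (adjusted p = 0.135) and -0.39 (adjusted p = 0.127) without normoxia library 1 and 2. Of 6 members tested 1 rose and 3 fell, against 17.9% and 18.3% of 14869 genes. The summed value of the 5 fibroblast markers with a row, led by COL1A2, was 1020 and 1114 in BFTC909 normoxia, 4447 and 4652 in hypoxia and 2481 and 2680 with METTL4-si, DCN and PDGFRA having no row. That of the 3 of 5 simple epithelial markers with a row was 84.4 and 82.5, 21.2 and 21.4, and 31.0 and 1121. The part of these markers in the results of the line was not tested.

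After METTL4-si in hypoxic BFTC909 cells EGFR was at 370 and 313 against 481 and 485 with Scr-si and fell (-0.50 ± 0.09, adjusted p = 0.00456). ERBB2 was at 21.9 and 33.7 against 17.2 and 18.0 (0.60 ± 0.18, adjusted p = 0.039). The higher ERBB2 value was in library 2, in which KRT8 and GATA3 were raised. Without that library, which leaves a single METTL4-si library, the ERBB2 change was 0.30, under 1.3-fold. It also missed the threshold without normoxia library 1 or 2 (0.60, adjusted p = 0.0738 in both) and hypoxia library 1 (0.57, adjusted p = 0.183) or 2 (0.63, adjusted p = 0.153). HBEGF was at 3.61 and 4.13 against 4.63 and 4.54, so that it stayed far below its normoxic 17.3 and 17.0, and the difference did not pass (-0.20 ± 0.11, adjusted p = 0.222). EREG was at 1.78 and 1.21 (38 and 24 reads) against 0.434 and 0.526 and rose (0.75 ± 0.17, adjusted p = 0.0143). BTC was at 1.31 and 2.52 (28 and 50 reads) against 0.53 and 0.239. Since BTC entered the test only through these METTL4-si libraries, its fitted difference of 1.05 ± 0.22 is given as a value and not counted as a rise. Without hypoxia library 1 EREG missed the threshold (0.70, adjusted p = 0.0944), and without hypoxia library 2 EREG (0.79, adjusted p = 0.0732) and EGFR (-0.50, adjusted p = 0.0531) did. ERRFI1 was at 16.5 and 14.5 against 11.7 and 13.4 and did not pass (0.29 ± 0.11, adjusted p = 0.0857). Of the 5 members other than BTC, 2 rose and 1 fell, where 13.2% and 11.7% of all genes tested did, and without library 2 1 rose and 1 fell.

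**Figure D2:**
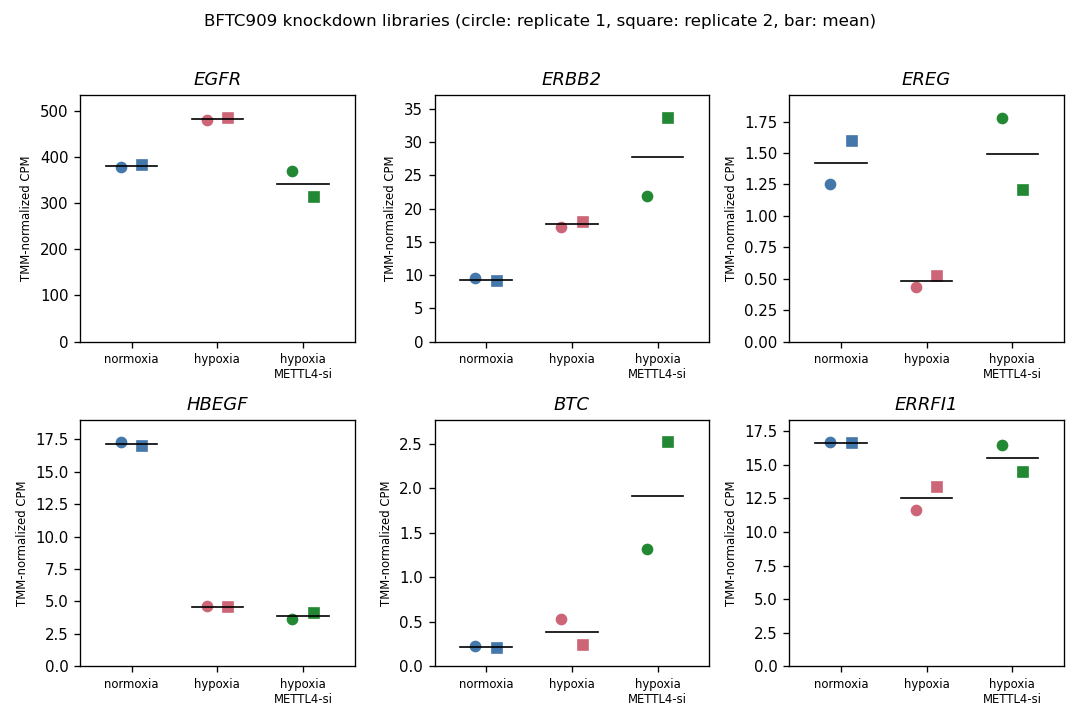
TMM-normalized CPM (linear axes from 0) of the 6 members with a row in the BFTC909 knockdown table, 1 panel per gene, with a circle for replicate 1 and a square for replicate 2 of a group and a line at the group mean. HBEGF was low in both hypoxic groups, and ERBB2 was highest after METTL4-si.

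The responses of both lines were compared directly for the 6 members tested in each, as the change in BFTC909 minus the change in FADU in 1 limma fit of the 12 knockdown libraries. For the hypoxia response 4 of 6 members differed, against 25.9% of 13595 genes. ERRFI1, which rose in FADU and fell in BFTC909, differed by -1.05 ± 0.14 on the log2 scale (adjusted p = 0.000802). ERBB2 differed by 1.06 ± 0.21 (adjusted p = 0.00585), EREG by 1.28 ± 0.22 (adjusted p = 0.00285) and BTC by 1.13 ± 0.28 (adjusted p = 0.0151). Both EREG and BTC are at a few reads in BFTC909, where log2(value + 1) compresses a change, so the differences of these 2 genes are between unlike depths. With a pseudocount of 0.1 in place of 1 the EREG difference was 0.62 and did not pass (adjusted p = 0.138), the ratio of mean values being 4.04-fold lower in FADU and 2.97-fold lower in BFTC909. BTC missed the threshold without FADU normoxia library 1 (0.97, adjusted p = 0.0643), FADU hypoxia library 2 (1.12, adjusted p = 0.0507), BFTC909 normoxia library 2 (1.12, adjusted p = 0.0512) or BFTC909 hypoxia library 1 (0.98, adjusted p = 0.0608). HBEGF fell in both lines, and its difference did not pass (-0.24 ± 0.17, adjusted p = 0.34). The EGFR difference was -0.41 ± 0.15 (adjusted p = 0.0779) and did not pass. It was -0.38 without the 3 libraries with raised markers and -0.41 when any 1 of the 4 METTL4-si libraries was left out. These fits leave a single library in a group.

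For the METTL4-si effect 3 of 6 members differed between the lines, against 25.3% of 13595 genes. HBEGF differed most, by -1.66 ± 0.17 (adjusted p = 0.000226): it was higher than in Scr-si cells in the FADU METTL4-si-labelled libraries and not in those of BFTC909. ERRFI1 differed by 0.94 ± 0.14 (adjusted p = 0.00142) and EREG by -1.13 ± 0.22 (adjusted p = 0.00535). The EREG difference did not pass with a pseudocount of 0.1 (-0.45, adjusted p = 0.277), and the ratio of its mean values was 3.77-fold in FADU and 3.12-fold in BFTC909. For EGFR the difference was 0.15 ± 0.15 (adjusted p = 0.498), for ERBB2 0.23 ± 0.21 (adjusted p = 0.466) and for BTC -0.40 ± 0.28 (adjusted p = 0.33), none of which passed. The ERBB2 difference was 0.53 without BFTC909 METTL4-si library 1, which leaves the marked library alone in its group.

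**Figure D3:**
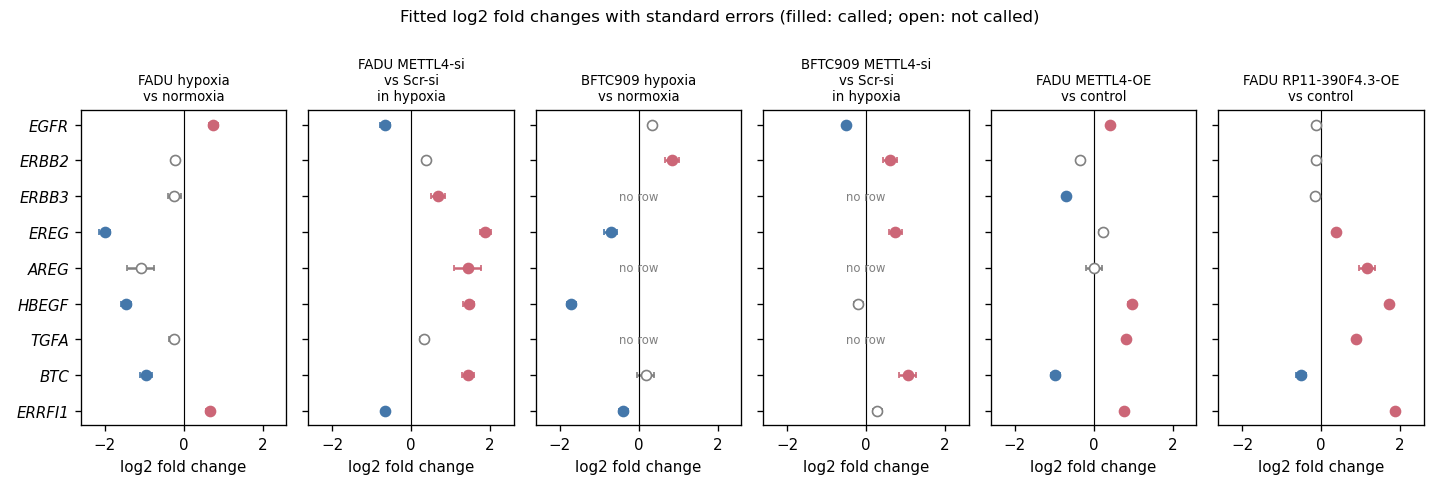
Log2 fold change with its standard error (limma, on log2(value + 1)) of each member in the 6 comparisons with a control group, 1 panel each, with filled points for members that passed the test and open points for those that did not. BTC is filled for METTL4-si in BFTC909, although it entered that test only through the METTL4-si libraries and is not counted as a rise. All members shown except EGFR and ERRFI1 lay below 0 for hypoxia and above 0 for METTL4-si in FADU, though not all passed the test. ERRFI1 lay furthest above 0 in RP11-390F4.3-OE cells.

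The overexpression experiment asks what added METTL4 or RP11-390F4.3 does at 18% O2. Both comparisons with control cells use the same 2 control libraries. In METTL4-OE cells EGFR was at 1479 and 1496 against 1113 and 1113 in control cells, a 1.34-fold rise (0.42 ± 0.05, adjusted p = 1.39e-05). ERBB3 was at 33.7 and 33.5 against 53.7 and 55.9 and fell (-0.69 ± 0.06, adjusted p = 1.14e-06). ERBB2 was at 78.2 and 77.9 against 100 and 99.0, a change of -0.35 ± 0.05 (adjusted p = 5.51e-05) that was 1.27-fold and under the fold threshold. All 3 receptors lay apart from control in both libraries, but how many of all genes did so with 2 libraries per group was not counted. In RP11-390F4.3-OE cells the receptors moved less, with EGFR at 1046 and 979 (-0.14 ± 0.05, adjusted p = 0.0285), ERBB2 at 89.4 and 92.4 (-0.13 ± 0.05, adjusted p = 0.0306) and ERBB3 at 47.0 and 52.0 (-0.15 ± 0.06, adjusted p = 0.0619), none at 1.3-fold. Compared directly, RP11-390F4.3-OE cells had less EGFR than METTL4-OE cells (-0.56 ± 0.05, adjusted p = 5.27e-07) and more ERBB3 (0.54 ± 0.06, adjusted p = 6.38e-06), while the ERBB2 difference was 0.22 ± 0.05 (adjusted p = 0.00149), under 1.3-fold.

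HBEGF rose in both kinds of overexpressing cells, from 12.6 and 10.2 in control to 24.7 and 21.8 with METTL4 (0.97 ± 0.10, adjusted p = 3.08e-06) and to 41.2 and 38.7 with RP11-390F4.3 (1.73 ± 0.10, adjusted p = 6.81e-09). The 3 groups were well separated, and the RP11-390F4.3-OE cells exceeded the METTL4-OE cells in a direct test (0.76 ± 0.10, adjusted p = 1.72e-05). TGFA rose from 53.2 and 50.8 to 91.1 and 94.1 (0.82 ± 0.05, adjusted p = 2.48e-08) and to 98.1 and 94.4 (0.88 ± 0.05, adjusted p = 1.03e-08). The difference in TGFA between both overexpressing groups did not pass (0.06 ± 0.05, adjusted p = 0.367). BTC fell from 5.92 and 6.56 to 2.78 and 2.63 with METTL4 (-0.96 ± 0.12, adjusted p = 3.75e-05) and to 3.99 and 4.198 with RP11-390F4.3 (-0.51 ± 0.12, adjusted p = 0.00393). BTC was thus the ligand that moved against HBEGF and TGFA, and it was higher in RP11-390F4.3-OE than in METTL4-OE cells (0.46 ± 0.12, adjusted p = 0.00677). That difference in BTC did not pass with a pseudocount of 5 (0.24), after median centring (0.37) or with DESeq2 (0.60, adjusted p = 0.0708).

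AREG was at 3.67 and 3.68 in control cells, at 5.27 and 2.58 in METTL4-OE cells, on both sides of control (0.02 ± 0.20, adjusted p = 0.947), and at 8.58 and 10.3 in RP11-390F4.3-OE cells. The latter rose against control (1.16 ± 0.20, adjusted p = 0.000282) and exceeded METTL4-OE cells (1.14 ± 0.20, adjusted p = 0.000286). The copy AREGB varied without order, at 6.87 and 1.63 in control, 1.99 and 4.62 in METTL4-OE and 4.03 and 4.24 in RP11-390F4.3-OE cells, and with AREGB added the AREG change in RP11-390F4.3-OE cells was 0.77 (adjusted p = 0.00515). EREG was at 195 and 150 in control, 212 and 191 in METTL4-OE and 227 and 219 in RP11-390F4.3-OE cells. The METTL4-OE and control values of EREG overlapped, and the change of 0.24 ± 0.09 (adjusted p = 0.0498) was under 1.3-fold. Without control library 1, which leaves a single control library, the EREG change was 0.43. In RP11-390F4.3-OE cells EREG rose by 0.39 ± 0.09 (adjusted p = 0.00261), barely past 1.3-fold, and fell short of it without control library 2 (0.20, adjusted p = 0.0193) or RP11-390F4.3-OE library 1 (0.36, adjusted p = 0.024). It also lost the call with edgeR (0.36, adjusted p = 0.00466), a pseudocount of 5 (0.38, adjusted p = 0.00304) or median centring (0.31, adjusted p = 0.00841), all under 1.3-fold, and with DESeq2 (0.37, adjusted p = 0.0677) or limma without trend (0.39, adjusted p = 0.0565). The difference in EREG between both overexpressing groups did not pass (0.15 ± 0.09, adjusted p = 0.174).

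ERRFI1 was the member that moved furthest in this experiment, from 35.0 and 32.7 in control to 57.9 and 58.4 in METTL4-OE (0.76 ± 0.05, adjusted p = 8.12e-08) and to 127 and 125 in RP11-390F4.3-OE cells, a 3.65-fold rise (1.87 ± 0.05, adjusted p = 7.23e-12). No libraries of different groups overlapped, and RP11-390F4.3-OE cells had more than METTL4-OE cells (1.11 ± 0.05, adjusted p = 1.75e-09). In METTL4-OE cells 4 of 9 members rose and 2 fell, against 8% and 10.5% of 15644 genes. In RP11-390F4.3-OE cells 5 rose, EREG included, and 1 fell, against 16.5% and 12.5%, and in the direct comparison 5 were higher and 1 lower than in METTL4-OE cells, against 18.4% and 13.3%. The medians over the members were 0.24, 0.39 and 0.46, and those of all genes 0.01, 0.01 and -0.0003. GATA3 was at 16.5 in RP11-390F4.3-OE library 2 against 2.98 in library 1, and the counts of 5 and 1 against control were the same without library 2.

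**Figure D4:**
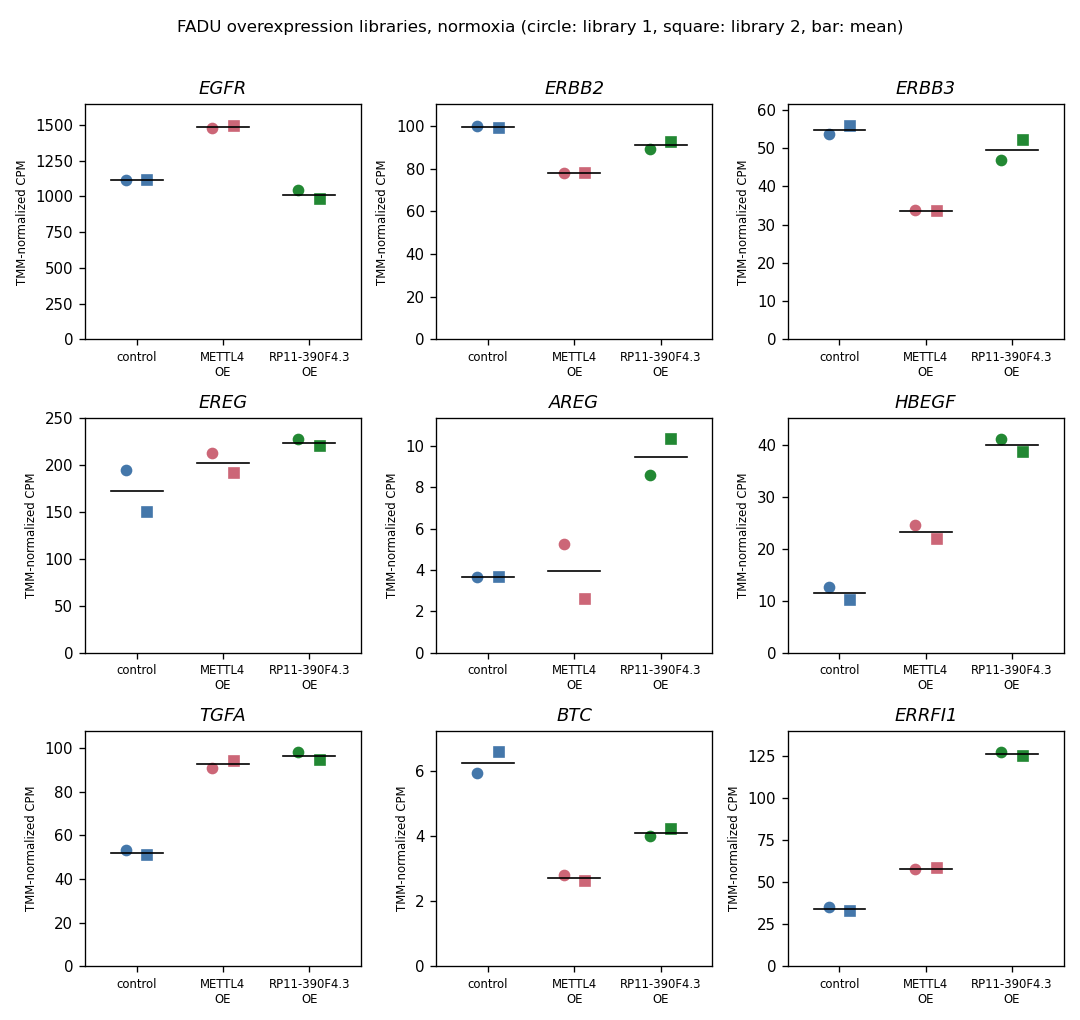
TMM-normalized CPM (linear axes from 0) of the 9 members with a row in the overexpression table, 1 panel per gene, with a circle for replicate 1 and a square for replicate 2 of control, METTL4-OE and RP11-390F4.3-OE cells and a line at the group mean. ERRFI1 and HBEGF rose from control through METTL4-OE to RP11-390F4.3-OE cells, and EGFR was highest in METTL4-OE cells.

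The METTL4 mutant clones were set against a single control library under hypoxia, with no replicate check of the difference and no test, and a gene is named as moved where both clones lay past 1.3-fold in 1 direction. METTL4 RNA was 12.5 in the control, 15.9 in clone 1 and 10.6 in clone 2, which does not check the mutation, since it alters the protein. HBEGF was at 10.9 in control cells, 2.95 in clone 1 and 2.71 in clone 2, log2 ratios of -1.59 and -1.68. Both clones were close to each other and far from the control. ERBB2 was at 77.9, 56.1 and 59.2 in the same order (-0.47 and -0.39). These were the 2 members past 1.3-fold in both clones, both below the control, where 8.94% of 15719 genes were above and 11.8% below in both clones. EGFR was also lower, at 1260, 976 and 693, but clone 1 was within 1.3-fold (-0.37 and -0.86). ERBB3 was at 36.5, 28.9 and 26.9 (-0.33 and -0.43), AREG at 3.94, 3.69 and 2.68 (-0.07 and -0.43) and ERRFI1 at 43.3, 39.4 and 28.1 (-0.13 and -0.61), each lower in both clones with only clone 2 past 1.3-fold. EREG and BTC were higher in clone 1 alone, at 80.2, 144 and 83.8 (0.83 and 0.06) and at 1.85, 3.69 and 1.82 (0.72 and -0.02). TGFA was at 33.9, 37.5 and 36.6 (0.14 and 0.11), near the control in both. AREGB was at 5.82, 2.50 and 0.733 (-0.96 and -1.98).

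The member receptors and the member ligands were summed per library, as values per kb. ERBB4, EGF and the neuregulins are not in these sums. NRG1 in hypoxic BFTC909 cells and NRG4 in hypoxic FADU cells, whose values are given below, were higher there than some member ligands. The ratios therefore depend on the genes chosen. In FADU normoxia the 3 receptors summed to 89.4 and 90.9 per kb and the 5 ligands to 58.1 and 60.1, so receptor RNA was 1.54 and 1.51 times ligand RNA. In hypoxia the sums were 137 and 141 against 23.3 and 23.1, a ratio of 5.87 and 6.11. In the METTL4-si-labelled libraries they were 91.3 and 107 against 54.9 and 65.1, a ratio of 1.66 and 1.64. Both sides of the ratio moved in hypoxia, the receptor sum upwards and the ligand sum downwards. EREG made up 60.0% and 59.6% of the ligand sum in normoxia and 37.0% and 38.5% in hypoxia, and EGFR made up 76.9% to 90.2% of the receptor sum over the 6 libraries. BFTC909 had 2 receptors and 3 ligands to sum, with a ratio of 4.04 and 4.12 in normoxia, 17.5 and 18.9 in hypoxia and 12.6 and 9.02 after METTL4-si. The BFTC909 ratio after METTL4-si remained above its normoxic value, while that of the FADU METTL4-si-labelled libraries was near theirs. On the 5 genes with a row in both lines, the log2 ratio in FADU was 0.97 and 0.96 in normoxia, 3.53 and 3.53 in hypoxia and 1.19 and 1.08 with METTL4-si, against 2.01 and 2.04, 4.13 and 4.24, and 3.65 and 3.17 in BFTC909. In the overexpression experiment the ratio was 1.57 and 1.89 in control, 1.51 and 1.67 in METTL4-OE and 0.975 and 0.954 in RP11-390F4.3-OE cells. The ligand sum in the RP11-390F4.3-OE libraries, 80.2 and 78.4 per kb, was the highest within that table, and whether it exceeded the receptor sum of 78.3 and 74.8 depended on the length used: with the canonical transcript in place of all exons the mean log2 ratio was 0.42 and not -0.05. The CRISPR control had a ratio of 3.24 and the mutant clones 1.85 and 2.04. These ratios are descriptions with no test.

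**Figure D5:**
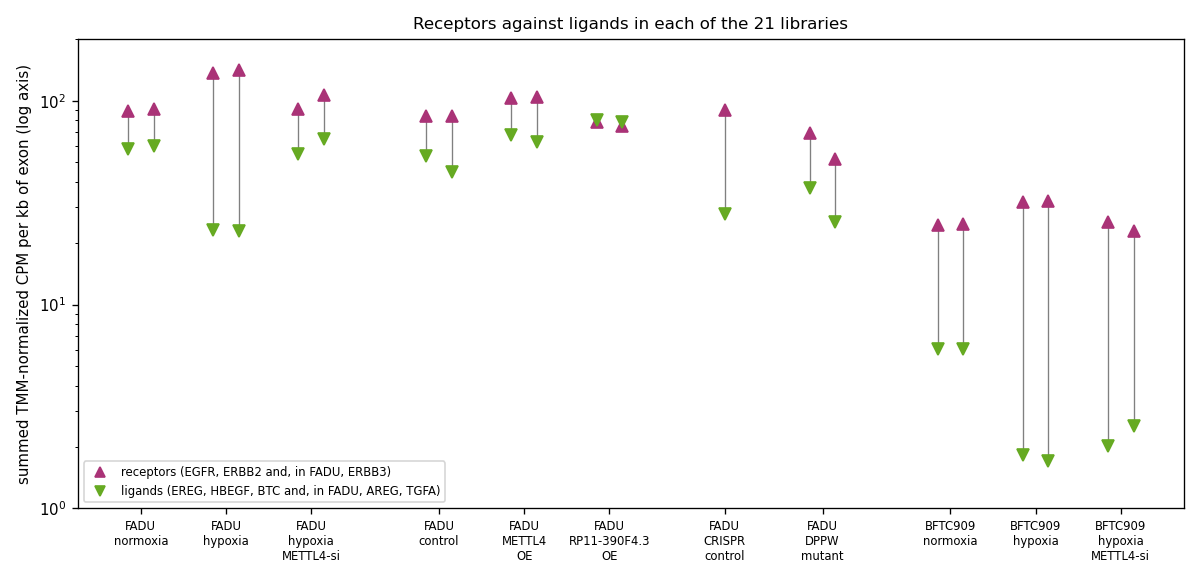
Summed values per kb of exon of the member ligands and of the member receptors in each library, by group, on 1 log axis, with a line joining both sums of a library. The sums lay far apart in the hypoxic Scr-si libraries of FADU (137 and 141 against 23.3 and 23.1) and next to each other in the RP11-390F4.3-OE libraries.

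The rest of the pathway was described by lists from general knowledge. Of the other receptors and ligands of the family, ERBB4, EGF and NRG1 to NRG4, 5 could be tested in FADU, with 1 that rose and 2 that fell in hypoxia and 2 that rose and 1 that fell in the METTL4-si-labelled libraries, where 9.73% and 9.65% of all genes rose and fell in hypoxia and 12.5% and 15.3% with METTL4-si. The 2 that fell in hypoxia were 1 without hypoxia library 1 and 0 by limma without hypoxia library 2 or either normoxia library, and the 2 that rose with METTL4-si were 1 without either hypoxia library. Without both libraries with raised breast markers 3 fell in hypoxia and 3 rose with METTL4-si. NRG4, a ligand of ERBB4, rose in FADU hypoxia from 11.4 and 14.4 to 35.1 and 36.5 (1.41 ± 0.15, adjusted p = 0.00174) and was at 8.73 and 11.0 in the METTL4-si-labelled libraries (-1.77 ± 0.15, adjusted p = 0.000513). It therefore moved with EGFR and not with EREG. NRG2, a ligand of ERBB3 and ERBB4, fell in BFTC909 hypoxia from 6.27 and 4.78 to 0.771 and 0.717 (-1.89 ± 0.18, adjusted p = 0.000225). NRG1, the main ERBB3 ligand, rose in METTL4-OE cells from 45.4 and 42.2 to 87.9 and 90.6 (1.01 ± 0.06, adjusted p = 9.09e-09), the cells in which ERBB3 fell, and fell in BFTC909 METTL4-si libraries from 183 and 183 to 87.0 and 79.8 (-1.13 ± 0.07, adjusted p = 6.04e-05). In the mutant clones NRG1 was above the control (log2 ratios 0.91 and 1.42) and NRG4 below it (-1.03 and -0.98).

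Of 8 sheddases and their adaptors, which free the ligands from the membrane, 1 rose and 1 fell in FADU hypoxia, against 9.73% and 9.65% of all genes. In BFTC909 hypoxia 3 rose, against 17.9%. The 1 that fell in FADU did not pass when any 1 of the 4 normoxic and hypoxic Scr-si libraries was left out. ADAM12, a metalloprotease that can cut HBEGF, rose in both lines, from 4.197 and 3.93 to 11.5 and 11.5 in FADU (1.31 ± 0.12, adjusted p = 0.00122) and from 435 and 443 to 840 and 841 in BFTC909 (log2 fold change 0.94). It also rose in METTL4-OE cells, from 3.20 and 3.35 to 18.3 and 17.7 (2.15). ADAM17, the main sheddase of AREG, TGFA and HBEGF, rose in BFTC909 hypoxia from 76.0 and 76.8 to 103 and 101 (0.41) and was lower in both mutant clones, with log2 ratios of -0.73 and -0.72. Among 12 genes of receptor turnover, 1 rose and 1 fell in FADU hypoxia, against 9.73% and 9.65% of all genes. Of 11 tested in BFTC909 2 rose and 3 fell, against 17.9% and 18.3%, and fewer fell without normoxia library 1. LRIG1, which promotes degradation of the receptors, rose in BFTC909 hypoxia from 161 and 162 to 318 and 327 (0.99 ± 0.08, adjusted p = 0.00011), and CBLB, a ubiquitin ligase, rose there from 20.1 and 23.6 to 82.8 and 80.1 (1.86).

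Of the 23 tested adaptors and kinases of the cascade itself, 3 rose in FADU hypoxia, against 9.73% of all genes, and 9 fell in the METTL4-si-labelled libraries, against 15.3%. The latter count ran from 6 to 12 over the fits that left out 1 library and was 12 without the libraries with raised breast markers. In BFTC909 hypoxia 3 rose and 4 fell, against 17.9% and 18.3% of all genes. Fewer rose and fewer fell without normoxia library 1, fewer fell without normoxia library 2 and fewer rose without hypoxia library 1. MAP2K1 (MEK1) rose from 58.9 and 61.2 to 95.2 and 97.1 in FADU hypoxia (0.67) and was at 46.9 and 46.6 in the METTL4-si-labelled libraries (-1.03 ± 0.06, adjusted p = 0.000214). In RP11-390F4.3-OE cells 5 rose, against 16.5% of all genes, among them PIK3CA, from 78.5 and 78.0 to 126 and 121 (0.65).

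Of 10 ERK output genes, which ERK signalling switches on, 9 fell in FADU hypoxia, against 9.65% of all genes, and 8 fell in BFTC909 hypoxia, against 18.3%. With METTL4-si 8 rose in FADU, against 12.5%, and 8 rose and 1 fell in BFTC909, against 13.2% and 11.7%. Their median log2 fold changes were -0.96 and -1.40 for hypoxia and 0.89 and 1.29 for METTL4-si. The count in FADU hypoxia was lowest, 5, without hypoxia library 2. Without the libraries with raised markers 8 fell in FADU hypoxia, and 9 rose in FADU and 8 in BFTC909 with METTL4-si. In METTL4-OE cells 7 of the 10 rose, against 8% of all genes, and in RP11-390F4.3-OE cells 7 rose and 2 fell, against 16.5% and 12.5%. DUSP4, a phosphatase that switches ERK off, fell in hypoxia from 35.9 and 36.4 to 6.02 and 4.83 in FADU (-2.54 ± 0.31, adjusted p = 0.00273) and from 27.8 and 26.0 to 1.40 and 1.48 in BFTC909 (-3.52 ± 0.26, adjusted p = 9.45e-05). It was at 32.9 and 15.5 in the FADU METTL4-si-labelled libraries and at 9.80 and 19.4 in those of BFTC909. DUSP6, another ERK phosphatase, rose from 32.4 and 22.7 to 103 and 99.4 in METTL4-OE cells (1.86 ± 0.11, adjusted p = 1.14e-08) and to 303 and 305 in RP11-390F4.3-OE cells (3.44 ± 0.11, adjusted p = 1.59e-11), an order that ERRFI1 and HBEGF shared. EPHA2, an ephrin receptor, went against the list, falling in BFTC909 METTL4-si libraries from 113 and 123 to 37.5 and 43.5 (-1.52 ± 0.09, adjusted p = 5.34e-05) and in RP11-390F4.3-OE cells from 191 and 171 to 118 and 115 (-0.63), where CCND1 (cyclin D1) fell too, from 771 and 750 to 575 and 536 (-0.45).

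Of 9 ERK feedback inhibitors, 4 of which are ERK output genes as well, 1 rose and 5 fell in FADU hypoxia, against 9.73% and 9.65% of all genes. In the METTL4-si-labelled libraries 5 rose and 1 fell, against 12.5% and 15.3%. Of the 8 tested in BFTC909, 1 rose and 7 fell in hypoxia, against 17.9% and 18.3% of all genes, and 5 rose and 1 fell with METTL4-si, against 13.2% and 11.7%. All 9 rose in RP11-390F4.3-OE cells, against 16.5%. The FADU counts were lowest at 3 that fell, without hypoxia library 2, and at 2 that rose, without hypoxia library 1, or 3, without hypoxia library 2. SPRY1, a Sprouty inhibitor, was the exception in both lines, rising in FADU hypoxia from 0.499 and 0.983 to 6.78 and 7.80 (2.26 ± 0.18, adjusted p = 0.000714) and in BFTC909 from 2.82 and 2.35 to 6.46 and 6.59 (1.07), while SPRY4 fell in BFTC909 from 21.7 and 22.4 to 1.88 and 2.91 (-2.78). In the mutant clones the ERK output genes were split, 3 above and 2 below the control in both clones, against 8.94% and 11.8% of all genes. CCND1 (0.96 and 0.84), DUSP4 (0.68 and 0.61) and ETV5 (0.49 and 0.44) were above it, and SPRY4 (-0.60 and -0.47) and EPHA4 (-0.72 and -1.04) below it.

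Over the 12 knockdown libraries, each taken as its difference from the mean of its table, the genes most like EGFR were TRIT1 (Pearson r = 0.975) and NUDT13 (r = 0.973). For ERBB2 they were COQ8B (0.985) and ABCA7 (0.983), and for EREG DIS3L (0.965) and LIFR (0.958). HBEGF was most like QSOX2 (0.990) and PHF8 (0.985), BTC most like ANGEL1 (0.977) and ERVK13-1 (0.976), and ERRFI1 most like BAIAP2L1 (0.975) and GID4 (0.965). None of these neighbours is a member of the family or of the lists above. The points share libraries and depth, and the correlations are descriptions of these 12 libraries.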

How the data were processed

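Total RNA was sequenced after ribosomal RNA removal with a stranded Kapa HyperPrep kit. According to the submitters' processing notes the authors used Trim Galore, HISAT2 with hg19, HTSeq and edgeR. Their versions, settings and gene annotation are not given in the sources used here. Each deposited value is a TMM-scaled CPM, a normalized signal, for 21 libraries in 4 tables, each scaled on its own. The 4 tables of the authors' comparisons hold fold changes and p-values and were not used.

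In the knockdown and overexpression tables all values were whole multiples of the value of 1 read, which recovered the reads (100% whole, tolerance 0.01 of a read). In the mutant table the scaling took in reads of rows that name no gene (42.8%, 43.0% and 40.9% of the columns), which were left out. Columns of the RP11-390F4.3-OE cells were assigned by elimination. Coordinates and exon lengths are from GENCODE v44 lifted to hg19.

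Group means of a table's 6 libraries were fitted with limma 3.58.1 (eBayes with trend) in R 4.3.3 on log2(value + 1), for genes that reached a value of 1 in 2 or more libraries. All 12 knockdown libraries entered 1 fit for the differences between lines, called at an adjusted p under 0.05. The fits were tested on simulated data. edgeR 4.0.16 and DESeq2 1.42.0 on the recovered reads, other pseudocounts and filters, median centring, a replicate block, a 2-fold threshold and each library left out were alternatives. Leaving out the libraries with raised markers, adding AREGB to AREG and the canonical length were chosen after seeing the data. Descriptions used Python 3.11.15 with pandas 2.3.3. The members, pathway lists and cell type markers were chosen with earlier results of these data known. All members are named, with AREGB, METTL4 and CA9. From each pathway list the genes named are among the 2 with the largest log2 fold change per direction and comparison among those called. The 2 genes most like each member come from those with a mean value of at least 5 in both lines.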

Additional observations from a re-analysis of the deposited data

Results flagged for a closer look

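The response of the lines differed in 7 cases by the limma fit of all 12 knockdown libraries, given as the log2 fold change in BFTC909 minus that in FADU. For hypoxia the difference was -1.05 for ERRFI1, 1.28 for EREG, 1.06 for ERBB2 and 1.13 for BTC. ERRFI1 rose in FADU and fell in BFTC909, and ERBB2 rose in BFTC909 and did not pass the test in FADU. For METTL4-si it was -1.66 for HBEGF, 0.94 for ERRFI1 and -1.13 for EREG. HBEGF had 5.80 and 6.11 with Scr-si and 16.2 and 20.2 in METTL4-si-labelled FADU libraries, but 4.63 and 4.54 against 3.61 and 4.13 in BFTC909. Both EREG differences did not pass with a pseudocount of 0.1 (0.62 for hypoxia and -0.45 for METTL4-si). The cause of these differences was not tested. In FADU the METTL4-si-labelled libraries had no lower METTL4 RNA, and EREG and BTC had 50 reads or fewer in each BFTC909 library.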

How the results depend on the processing

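At a 2-fold threshold 2 members passed in FADU hypoxia (5 at 1.3-fold), 4 with METTL4-si in FADU (7), 1 in BFTC909 hypoxia (4), 1 with METTL4-si in BFTC909 (4, BTC included), 3 in RP11-390F4.3-OE cells (6) and 2 between both overexpressing groups (6). The 1 member with METTL4-si in BFTC909 was BTC, which entered that test only through the METTL4-si libraries and is not counted as a rise above. Counts of 4 for METTL4-si in BFTC909, here and below, include BTC. The share of all genes called under each of these settings is not set beside these counts. They therefore show only how the calls depend on the setting, and nothing particular to the family. In METTL4-OE cells 0 passed by limma at 2-fold, against 6 at 1.3-fold with adjusted or unadjusted p and 6 by edgeR and by DESeq2. With a pseudocount of 5 the counts were 2 and 2 in BFTC909, 4 and 5 for RP11-390F4.3-OE against control and METTL4-OE cells (6 each) and 1 for the mutant clones (2), and among genes of mean value 5 or more they were 2 for METTL4-si in BFTC909 and 2 for the difference in hypoxia response (4), for which fewer members were tested. Clone 1 alone gave 4 members past 1.3-fold and clone 2 alone 6. Leaving out 1 library gave 2 to 6 members in FADU hypoxia, 4 to 8 with METTL4-si in FADU, 1 to 4 in BFTC909 hypoxia, 0 to 4 with METTL4-si in BFTC909 (0 without hypoxia library 2), 6 to 7 in METTL4-OE and 5 to 6 in RP11-390F4.3-OE cells, and 3 to 5 and 3 to 4 for the differences between lines.

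Signs turned for changes that had not passed: AREG in METTL4-OE cells (0.02) was -0.38 without METTL4-OE library 1 and -0.052 with AREGB added, TGFA between both overexpressing groups (0.06) was -0.028 after median centring, and of the differences in METTL4-si effect BTC (-0.40) was 0.31 with a pseudocount of 0.1, EGFR (0.15) was from -0.018 without FADU METTL4-si library 1 to 0.33 without library 2, and ERBB2 (0.23) was from -0.069 without BFTC909 METTL4-si library 2 to 0.53 without library 1 and -0.029 without the 3 libraries with raised markers. The causes were not tested. Of the other values of single genes, 1221 kept direction and side of the threshold, 22 newly passed, 84 no longer passed and 2 moved.

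With the canonical transcript length the mean log2 ratio of receptors to ligands was higher in every group: in FADU 1.09 in normoxia (0.61), 3.04 in hypoxia (2.58) and 1.22 with METTL4-si (0.72), in BFTC909 2.40 (2.03), 4.59 (4.18) and 3.92 (3.41), in the CRISPR control 2.14 (1.70) and mutant clones 1.42 (0.96), in overexpression control 1.27 (0.78), METTL4-OE 1.11 (0.67) and RP11-390F4.3-OE cells 0.42 (-0.05).

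Replicate numbers were only shared: deviations of same-numbered libraries correlated at 0.648 between FADU normoxia and METTL4-si and between -0.07 and 0.15 elsewhere. With the replicate block 6 members passed in FADU hypoxia, AREG being added (-1.09, adjusted p = 0.033), and 7, 4, 4, 6, 4 and 3 in the other comparisons that could be blocked, as without it. No paired analysis was possible because the RP11-390F4.3-OE columns carry no replicate number for comparisons with them.

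Median centring moved the split of all genes called from 2667 higher and 2715 lower to 3215 and 2107 in BFTC909 hypoxia, from 1968 and 1736 to 1489 and 2510 with METTL4-si in BFTC909, from 2584 and 1955 to 1997 and 2852 in RP11-390F4.3-OE cells, from 2876 and 2074 to 2276 and 2992 between both overexpressing groups, and from 1576 and 1942 to 1650 and 1336 and from 2110 and 1331 to 1463 and 1418 for the differences between lines, with all-gene medians moving by less than 0.1.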
